A study of Mus musculus with 7 samples.

Results

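The genes of the MHC class II pathway were followed by symbol through every cell of the series. The 10 genes are H2-Aa, H2-Ab1, H2-Eb1, Cd74, Ciita, H2-DMa, H2-DMb1, H2-DMb2, H2-Oa and H2-Ob. All 10 are listed in the donor, keratinocyte and host tables, among 31907 genes listed in any of them and 13553 listed in all 3. RNA of single cells was counted with unique molecular identifiers (UMIs, 1 per captured molecule) in 7 libraries of C57BL/6 epidermis, taken 3 weeks after bone marrow transplantation (BMT). Lethally irradiated male CD45.2 hosts had received marrow of female CD45.1 donors. Of the 4 libraries of donor CD11b+MHCII+ cells, 3 are labelled BMT (2572, 8382 and 226 cells) and 1 BMT plus T cells (719 cells, written BMT + T cells). The 2 keratinocyte libraries hold CD45-negative host cells, 2836 under the BMT label and 2590 under the BMT + T cells label. A single library labelled BMT holds 781 host CD11b+MHCII+ cells. The series design names CD4 T cells and CD8 Matahari (Mh) T cells as part of the transplant in general, whereas the sample labels name T cells for the BMT + T cells libraries alone, so comparisons here are between labels. The study's methods describe pooled mice and more than 1 donor sorting experiment, but no label ties a library to its mice or experiment. No value within an experiment can therefore be given. P values between cell clusters measure the scatter left after library is fitted as a block, pooled over all annotated clusters. P values between labels measure the spread between these libraries. Both kinds of spread may be technical.

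MHC class II molecules are pairs of an alpha and a beta chain that display peptides from endosomes to CD4 T cells. H2-Aa and H2-Ab1 encode the chains of I-A, the class II molecule of C57BL/6 mice, and H2-Eb1 encodes the beta chain of I-E, whose alpha chain gene is defective in this strain. Cd74, the invariant chain, fills the groove on the way to the endosome. There H2-DM (H2-DMa with a beta chain from H2-DMb1 or H2-DMb2) exchanges the last fragment of Cd74 for peptide, and H2-O (H2-Oa with H2-Ob) restrains H2-DM. Ciita is the coactivator that switches the family on, and interferon-gamma induces it in cells that otherwise lack class II, such as keratinocytes. Langerhans cells, the antigen-presenting cells of the epidermis, carry class II constitutively. Donor and host myeloid cells had been sorted on MHCII protein, so the presence of class II RNA in them follows from the gate.

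Class II promoters share X and Y boxes, short elements upstream of the gene that bind the RFX and NF-Y factors and so recruit Ciita. Promoter letters are printed because they are a feature shared by most of these genes that the choice by symbol did not use. The RefSeq promoter table (GRCm38.p6, the build family named in the submitters' processing notes, with 250 bases before to 50 after each listed start) held 7 of the 10 genes, and H2-Ab1, Cd74 and Ciita had no entry. Each line below runs 5′ to 3′ on the gene's own strand, from 150 to 21 bases before the listed start. Capitals mark matches to TGATTGG (the Y box core), to AAC, any 2 bases, then ATGATG (letters taken here for the X box) or to TGACGTCA, searched on both strands. These motifs were chosen after the sequences had been seen. The windows are chr17:34287844-34287973 (minus strand) for H2-Aa, chr17:34305717-34305846 (plus strand) for H2-Eb1, chr17:34145099-34145228 (plus strand) for H2-DMb2, chr17:34092229-34092358 (plus strand) for H2-Oa and chr17:34238755-34238884 (plus strand) for H2-Ob. The H2-DMb2 window lies inside the span RefSeq gives that gene (34143229 to 34151553), before a listed internal start, and the other 4 windows lie outside their own gene.
H2-Aa: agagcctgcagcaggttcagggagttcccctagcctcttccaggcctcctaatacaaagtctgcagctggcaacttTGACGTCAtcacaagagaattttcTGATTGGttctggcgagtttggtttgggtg
H2-Eb1: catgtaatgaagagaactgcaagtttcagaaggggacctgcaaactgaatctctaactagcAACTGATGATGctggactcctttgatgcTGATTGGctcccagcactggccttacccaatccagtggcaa
H2-DMb2: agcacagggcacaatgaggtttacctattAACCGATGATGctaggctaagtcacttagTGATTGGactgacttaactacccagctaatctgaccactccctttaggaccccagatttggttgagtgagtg
H2-Oa: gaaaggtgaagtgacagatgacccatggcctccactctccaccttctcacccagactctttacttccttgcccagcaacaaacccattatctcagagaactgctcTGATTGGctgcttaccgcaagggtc
H2-Ob: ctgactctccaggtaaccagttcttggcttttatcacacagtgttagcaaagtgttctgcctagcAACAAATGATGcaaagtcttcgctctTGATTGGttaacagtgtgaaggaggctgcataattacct

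The Y box core was found in 6 of the 7 genes with an entry, the 5 shown and H2-DMb1, between 45 and 92 bases before the start. It occurred in 7.82% of all 32851 promoters in the table. The X box letters lay further upstream in H2-Eb1 (89 bases before the start), H2-DMb1 (92), H2-DMb2 (121) and H2-Ob (85), and occurred in 0.137% of all promoters. Both motifs together were in 9 promoters of the table, these 4 among them. H2-Aa held TGACGTCA, which is in 1.79% of all promoters, 74 bases before its start and had no match to the X box letters. Neither of the 2 listed H2-DMa starts had any of the 3 motifs. Both of these windows lie inside the span RefSeq gives that gene (34119693 to 34139101), so the bases before the span were not searched. A match describes these letters only, and a missing match says nothing of what binds there.

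Median depth per cell was 7021.5 to 13387 UMIs in the donor libraries and 8895.5 and 8834 UMIs in the keratinocytes. The host library stood apart, with a median of 4376 UMIs and 14.04% mitochondrial UMIs per cell against 1.395 to 2.201% in the other libraries, and 133 of its cells had under 500 genes. Any pair of libraries shared 0 to 7 cell barcodes. Levels are UMIs per 10000 UMIs of a cell (CP10K), averaged over cells on the linear scale, unless UMIs are stated. Donor clusters carry the authors' names: Mono for monocytes, MC for monocyte-derived cells, ISG Mono for monocytes with interferon-stimulated genes, and resident, cycling and migrating mLC for monocyte-derived Langerhans cells. Library values of a cluster were used where it held at least 20 cells, which gave 27 values per gene over 9 clusters. The markers mostly followed the names: Epcam, an adhesion gene of Langerhans cells, averaged 22.8 CP10K in resident mLC and 0.367 in Mono, the monocyte gene Plac8 0.0372 and 15.8, and the migration receptor Ccr7 8.91 in migrating mLC and 0.00571 in resident mLC. Mrc1 did not set Mrc1+ macrophages (5.65 CP10K) apart from Mono (5.64).

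The class II chains and Cd74 were abundant in every donor cluster, and between resident mLC and Mono they differed by less than 2-fold on average, whereas H2-DMb2 and H2-Oa differed by more. Together H2-Aa, H2-Ab1, H2-Eb1 and Cd74 made up 3.96 to 6.15% of all UMIs in Mono, 6.95 to 10.5% in resident mLC and 1.92 to 2.49% in Hmox1+ monocytes. In Mono, Cd74 measured 208, 134 and 231 CP10K for the BMT replicates in order and 267 CP10K with the BMT + T cells label, and values below keep this order. In resident mLC of the same libraries Cd74 was at 302, 257, 452 and 465 CP10K. Every library was higher in resident mLC than in Mono, yet the ranges of the clusters overlapped. H2-Aa was at 106, 90.0, 91.7 and 125 CP10K in Mono and at 116, 130.03, 131 and 151 in resident mLC, again with overlap. H2-Ab1 was at 128, 95.9, 91.6 and 108 CP10K in Mono and at 191, 179, 181 and 187 in resident mLC, and these ranges did not meet. H2-Eb1 was at 90.8, 59.7, 73.4 and 87.7 CP10K in Mono and at 126, 114, 131 and 136 in resident mLC, also apart.

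Among library values with at least 20 cells, Hmox1+ monocytes, named for heme oxygenase, had the lowest mean of the 9 clusters for H2-Aa, H2-Ab1, H2-Eb1, Cd74, H2-DMa, H2-DMb1 and H2-DMb2. Ciita, H2-Oa and H2-Ob were lowest there too, but on 3, 7 and 1 UMIs, too few to rank. The share of all genes lowest there was not counted, so this order is no result about the family. S100a+ monocytes left out for few cells (11 in BMT replicate 1, 9 in BMT + T cells) were lower still. H2-Aa, H2-Ab1, H2-Eb1 and Cd74 together made up 0.665 and 0.258% of their UMIs, against 2.46 and 2.49% in Hmox1+ monocytes. Cd74 averaged 82.6 CP10K ± 18.8 (SD, n = 3 libraries) in Hmox1+ monocytes, H2-Aa 45.9 ± 2.75 and H2-DMa 2.85 ± 0.263. For H2-Aa, H2-Ab1, H2-Eb1, H2-DMa, H2-DMb1 and H2-DMb2 the Hmox1+ range lay below that of the next cluster, while for Cd74, H2-Oa and H2-Ob it overlapped. For Ciita it also lay below, but the next cluster was 1 library of S100a+ monocytes with 8 UMIs. At the other end ISG Mono led the order for H2-Aa (159 ± 17.7 CP10K, n = 3), H2-Ab1 (198 ± 17.4), H2-Eb1 (134 ± 19.6) and H2-DMb1 (17.1 ± 4.44). Resident mLC led for Cd74 (369 ± 105 CP10K, n = 4), H2-DMa (19.3 ± 1.43), H2-DMb2 (4.15 ± 0.704), H2-Oa (0.327 ± 0.0661) and Ciita (0.181 ± 0.0769). H2-Ob was highest in migrating mLC, at 0.240 and 0.0838 CP10K in 2 libraries. Most neighbours in these orders could not be separated. Of 8 neighbouring pairs of clusters per gene, between 1 (H2-Ab1, Cd74 and H2-Ob) and 5 (H2-DMb2) had ranges that did not overlap. For H2-Ab1, H2-Eb1 and H2-DMb1 the leading ISG Mono overlapped resident mLC, and for Cd74 the order of the 2 clusters was the reverse with overlap. S100a+ monocytes rest on 1 library and migrating mLC on 2.

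**Figure D1:**
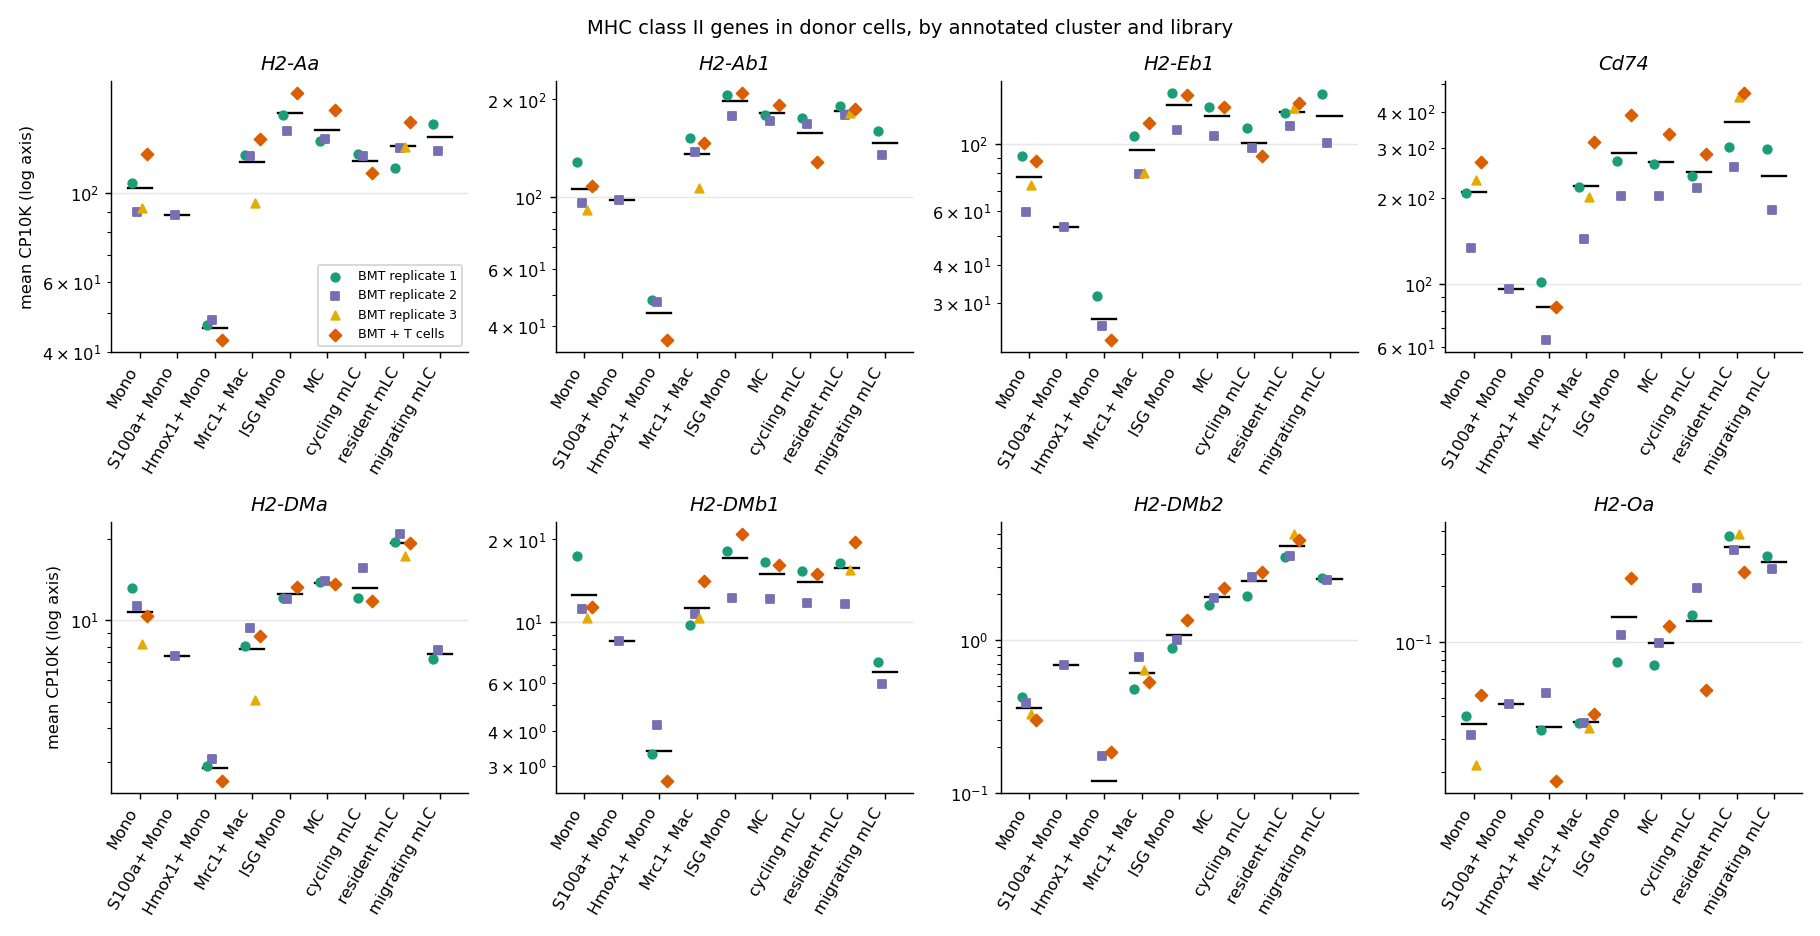
Mean CP10K on a log axis of class II genes in each annotated donor cluster. Points are libraries with at least 20 cells in the cluster and black bars are the mean of the libraries (S100a+ Mono has 1 library), and H2-DMb2 of BMT replicate 1 in Hmox1+ Mono is at 0 and cannot be drawn. Hmox1+ monocytes have the lowest mean in each panel (on 7 UMIs for H2-Oa), H2-DMb2 goes from a mean of 0.361 in Mono to 4.15 in resident mLC, and H2-DMa is at 19.3 in resident and 7.49 in migrating mLC.

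Resident mLC were compared with Mono, the start and an end of the differentiation the study follows. A gene was called at a limma adjusted p under 0.05 and an absolute log2 fold change above 1, on log2(CP10K + 0.1) per library and cluster. Of the 10 genes 8 were tested, since Ciita and H2-Ob lay under the filter of 0.1 CP10K on average, and 2 of the 8 were called, both higher. Among all 7267 genes tested 14.8% were called, 6.74% as higher. The clusters had been made from the same values, so calls describe the annotation. The median log2 fold change was 0.81 over the 8 genes and 0.14 over all genes.

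The larger of the 2 calls was H2-DMb2, a beta chain of H2-DM. It was at 0.425, 0.388, 0.327 and 0.302 CP10K in Mono and at 3.54, 3.59, 4.97 and 4.51 in resident mLC. The lowest resident mLC value thus lay far above the highest Mono value, and the gene rose with a log2 fold change of 3.20 (SE 0.21, 4 of 4 libraries, limma adjusted p = 2.2e-11). The other was H2-Oa, the alpha chain of the H2-DM inhibitor, at 0.0400, 0.0315, 0.0217 and 0.0518 CP10K in Mono and 0.372, 0.315, 0.383 and 0.239 in resident mLC. It rose with a log2 fold change of 1.64 (SE 0.22, 4 of 4 libraries, limma adjusted p = 2.28e-06), on 38 UMIs in all of Mono and 492 in all of resident mLC. Over the 27 library and cluster values H2-Oa averaged 0.126 CP10K, just above the filter of 0.1, and in Mono 0.0363. It was thus tested only because of the clusters where it is high, resident mLC among them, so its call is no independent support. With a pseudocount of 1 its log2 fold change was 0.36 and from the mean of log values 0.25, both short of the fold. Its partner H2-Ob, not tested, was at 0.0287, 0.0190, 0 and 0.0548 CP10K in Mono and 0.177, 0.0922, 0.0845 and 0.0914 in resident mLC, without overlap. Ciita, not tested either, was at 0.0584, 0.0531, 0.0826 and 0.0937 CP10K in Mono and 0.234, 0.106, 0.259 and 0.125 in resident mLC. These ranges too did not meet, at 49 and 160 UMIs in all.

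The remaining genes had smaller differences. H2-DMa, the alpha chain of H2-DM, was at 13.1, 11.3, 8.15 and 10.4 CP10K in Mono and at 19.5, 20.8, 17.4 and 19.3 in resident mLC, with a log2 fold change of 0.85 (limma adjusted p = 2.04e-06). H2-Ab1 and Cd74 each had a log2 fold change of 0.81 (limma adjusted p = 1.87e-06 and 2.07e-05) and H2-Eb1 0.72 (1.89e-05). All 4 passed the p threshold, were higher in resident mLC in 4 of 4 libraries and were short of the fold. H2-Aa differed by 0.36 (limma adjusted p = 0.0106). H2-DMb1, the other beta chain of H2-DM, was at 17.4, 11.1, 10.4 and 11.4 CP10K in Mono and 16.4, 11.6, 15.5 and 19.6 in resident mLC, with overlap, a log2 fold change of 0.33 and a limma adjusted p of 0.142.

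Against Mrc1+ macrophages, another annotated donor population, resident mLC had 3 of 8 genes called, all higher, where 13.9% of all genes were called and 5.75% as higher. These were H2-DMb2 (log2 fold change 2.59, limma adjusted p = 1.09e-09), H2-Oa (1.62, 2.87e-06) and H2-DMa (1.32, 2.20e-09). The H2-Oa difference was 0.35 with a pseudocount of 1 and 0.25 from the mean of log values, both short of the fold. Here too H2-Oa, at 0.0372 CP10K on average in Mrc1+ macrophages, passed the filter only because of the clusters where it is high. H2-DMa was at 8.07, 9.39, 5.07 and 8.79 CP10K in Mrc1+ macrophages, so every library stood below its own resident mLC. In MC against Mono 1 of 8 was called, H2-DMb2, with a log2 fold change of 2.17 (SE 0.24, 3 of 3 libraries, limma adjusted p = 8.19e-07), where 4.21% of all genes were called and 1.67% as higher. From the mean of log values it was 0.97, just short of the fold. H2-Ab1 (0.72, 0.000229), H2-Eb1 (0.64, 0.00151) and H2-Aa (0.44, 0.0204) passed the p threshold there without the fold. H2-DMa averaged 13.8 CP10K in MC and 10.8 in Mono and H2-DMb1 14.9 and 12.6, both uncalled, with ranges apart for H2-DMa and overlapping for H2-DMb1. H2-Oa averaged 0.0987 CP10K in MC and 0.0363 in Mono with ranges apart, uncalled by limma (log2 fold change 0.54, adjusted p = 0.218), while limma-voom called it (log2 fold change 1.04, adjusted p = 0.0353).

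Cycling mLC had none of the 8 genes called against resident mLC by limma or limma-voom, where 6.0% of all genes were called. At an unadjusted limma p under 0.05 there were 6 of 8, where 1729 of all 7267 genes were. All 6 had negative log2 fold changes, among them H2-DMa (-0.68, limma adjusted p = 0.000526), H2-Oa (-0.93, 0.0139) and Cd74 (-0.49, 0.0257). Migrating mLC, which carry the maturation gene Ccr7, had 2 of 8 called against resident mLC, both lower, where 12% of all genes were called, 6.91% as lower, and the median log2 fold change over all genes was -0.26. H2-DMa was at 7.21 and 7.77 CP10K in migrating mLC of BMT replicates 1 and 2 and fell by 1.5 on the log2 scale (SE 0.14, 2 of 2 libraries, limma adjusted p = 4.36e-08). H2-DMb1 was at 7.17 and 5.95 CP10K and fell by 1.23 (SE 0.22, 2 of 2 libraries, limma adjusted p = 0.000201). H2-DMb2, at 2.56 and 2.47 CP10K, had a log2 fold change of -0.58 (limma adjusted p = 0.132). None of the chains was called, with log2 fold changes of 0.07 for H2-Aa (limma adjusted p = 0.766), -0.06 for H2-Eb1 (0.793), -0.39 for Cd74 (0.0929) and -0.42 for H2-Ab1 (0.0322).

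Because H2-DMb1 and H2-DMb2 encode alternative beta chains of the same dimer, the share of H2-DMb2 in their summed UMIs was followed as well. It averaged 3.55% ± 0.657 (SD, n = 4) in Mono, with a range of 2.62 to 4.06%, and 21.0% ± 2.30 (n = 4) in resident mLC, with a range of 18.8 to 23.6%. Between these lay Mrc1+ macrophages (4.84% ± 1.03, n = 4), ISG Mono (6.59% ± 1.84, n = 3), MC (12.8% ± 2.47, n = 3) and cycling mLC (14.9% ± 2.98, n = 3). Migrating mLC had the highest mean share, 27.0 and 29.1% in 2 libraries, above every resident mLC value. In the migrating mLC left out for few cells it was 10.6% in BMT replicate 3 (2 cells) and 37.6% in BMT + T cells (16 cells). These lie below and above the resident mLC range. An exact sign-flip test over 4 libraries cannot go below p = 0.125, so no p is given for the share. The paralogs are close: 37.6% of the 31-base words of H2-DMb1 transcripts and 33.1% of those of H2-DMb2 also occur in another gene, 517 of them in each other. Within the first 300 transcript bases, nearer to where a 5' kit reads, these shares were 13.3 and 12.8%, so the split of reads between the paralogs is uncertain.

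**Figure D2:**
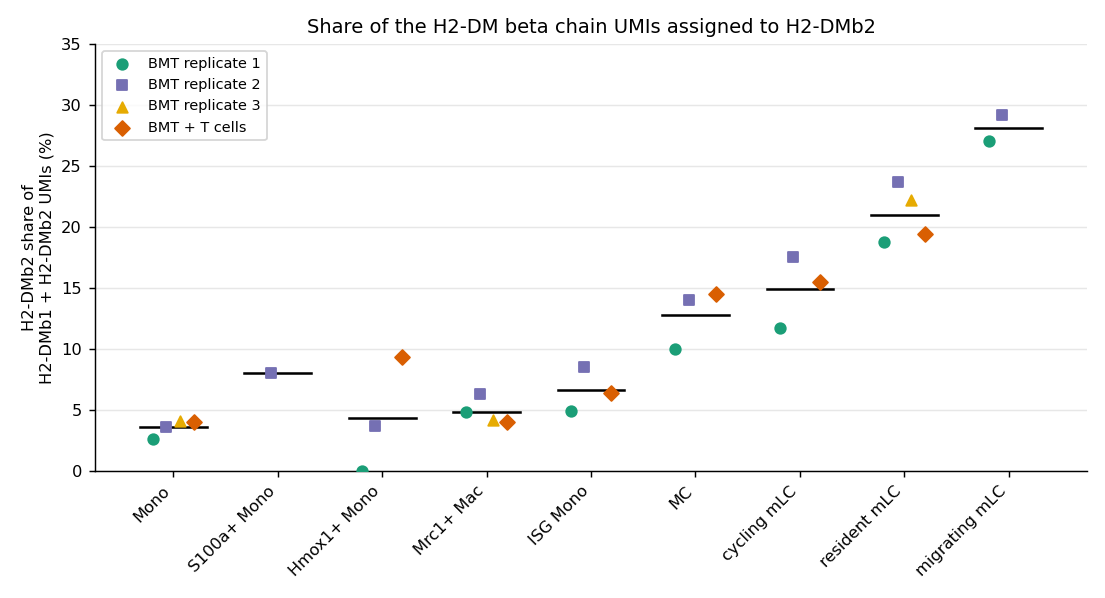
Share of H2-DMb2 in the summed UMIs of H2-DMb1 and H2-DMb2, in percent, by annotated donor cluster. Points are libraries with at least 20 cells and bars their mean, and the share goes from 3.55% in Mono through 12.8% in MC to 21.0% in resident and 28.1% in migrating mLC.

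Latent time, the pseudotime the authors deposited for donor cells, orders cells from RNA velocity, so it is no readout independent of these genes. H2-DMb2 went from 0.833, 1.02, 0.654 and 1.24 CP10K in the earliest of 4 equal groups of each library's cells by latent time to 1.46, 2.71, 3.83 and 4.19 in the last. It was highest in the last group in 4 of 4 libraries. H2-Aa went the other way, from 155, 142, 127 and 163 CP10K in the earliest group to 87.1, 109, 97.8 and 122 in the last. Cd74 had no common direction, at 273, 204, 297 and 353 CP10K in the earliest group and 189, 186, 327 and 370 in the last.

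Other genes of the pathway were taken from a list of 31 names, 23 of which were tested. In resident mLC against Mono 8 were called lower, where 8.04% of all genes were, and none higher. They included the class II proteases Ctss (cathepsin S, which trims Cd74), Lgmn, Ctsl and Ctsb, the interferon-gamma receptor chain Ifngr1 and the interferon-responsive factor Irf1. Ctss was at 46.3, 47.9, 43.7 and 47.4 CP10K in Mono and at 19.6, 22.03, 16.7 and 18.0 in resident mLC, and fell by 1.28 on the log2 scale (SE 0.17, limma adjusted p = 2.43e-06). Lgmn, asparagine endopeptidase, averaged 7.995 and 1.27 CP10K and fell by 2.38 (SE 0.25, limma adjusted p = 1.25e-07). Against Mrc1+ macrophages, the same 4 proteases were the only pathway genes called in resident mLC, all as lower, where 8.11% of all genes were. Cd83, which keeps class II at the surface, was at 6.38 and 6.29 CP10K in migrating mLC and 0.233 on average in resident mLC, a rise of 4.16 (SE 0.35, limma adjusted p = 7.06e-09). March1, the ligase that removes class II from the surface, averaged 0.990 and 2.52 CP10K in these clusters and fell by 1.45 (SE 0.26, limma adjusted p = 0.000209). H2-Eb2, a class II beta chain gene outside the 10, was under the filter, at 0.649 and 0.672 CP10K in migrating mLC against 0.0210 to 0.0625 in resident mLC.

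Genes whose levels followed the 4 chain genes most closely over the 27 library and cluster values were named by Pearson's r with their mean standardised profile. As a description, H2-DMb1 (r = 0.861) and H2-DMa (0.851) ranked 7 and 8 of 7267 genes, H2-DMb2 (0.763) 34 and H2-Oa (0.585) 447. Outside the pathway the closest were the initiation factor subunit Eif3i (0.875), the chaperones Hspe1 (0.863) and Hsp90ab1 (0.850), Slamf9 (0.842), Idh3g (0.838), Tecr (0.823), Micos13 (0.820), Tmed3 (0.816), Cd82 (0.810) and Fh1 (0.800). The values share libraries and depth, and all clusters rest on the same 4 libraries.

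Between labels, the BMT + T cells library was set against the 3 BMT libraries over the 3 clusters with 20 cells in each, Mono, Mrc1+ macrophages and resident mLC, weighted equally. limma called 0 of 7345 genes (0%) and none of the 9 members tested, while 352 genes had an unadjusted p under 0.05. Cd74 had the largest difference, with mean log2 values of 7.90, 7.41 and 8.11 in the BMT libraries and 8.41 in BMT + T cells. That library lay above all 3, with a log2 fold change of 0.60 (SE 0.34, limma adjusted p = 0.949). H2-Aa (0.31), H2-Eb1 (0.27) and H2-DMb1 (0.25) were likewise above all 3 BMT libraries, and H2-Oa (-0.05) was just below all 3. The rest lay between -0.19 (Ciita) and 0.08 (H2-Ab1 and H2-DMa), inside the BMT range. The share of all genes outside that range was not counted, so these positions are no result about the family. The fit takes the spread of the single BMT + T cells library to equal that of the BMT libraries, and the smallest p an exact permutation of these 4 libraries allows is 0.25.

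In keratinocytes class II RNA was rare under the BMT label, and the 6 genes with at least 20 UMIs were about 4 to 8 times as frequent under the BMT + T cells label. With 1 library per label there is no test of the labels, and the intervals below are 95% exact conditional intervals that cover counting error only. H2-Ab1 had 232 UMIs under BMT and 1651 under BMT + T cells, a ratio per total UMIs of 7.93 (6.91 to 9.14). Cd74 had 824 and 4763 UMIs, a ratio of 6.44 (5.98 to 6.95). H2-Aa went from 289 to 1361 UMIs, a ratio of 5.25 (4.62 to 5.98), and H2-Eb1 from 648 to 2313, a ratio of 3.98 (3.64 to 4.35).

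The peptide-loading genes of keratinocytes showed ratios of like size for H2-DM and too few UMIs for the rest. H2-DMa had 92 and 344 UMIs, a ratio of 4.17 (3.30 to 5.30), and H2-DMb1 106 and 449, a ratio of 4.72 (3.81 to 5.89). H2-DMb2 had 2 UMIs under each label, and its share of the paralogs was 1.85% (95% exact binomial interval 0.225 to 6.53%) and 0.443% (0.0538 to 1.59%). Ciita had 1 and 2 UMIs, a ratio of 2.23 with a counting interval of 0.116 to 132, and H2-Oa and H2-Ob had 0 UMIs under both labels, where 3 UMIs would be 0.00108 and 0.0012 UMIs per 10000. All 6 genes with at least 20 UMIs were past 2-fold higher, where 1.7% of 13319 genes were, and they ranked between 20 (H2-Ab1) and 54 (H2-Eb1) by ratio. On log2(mean CP10K + 0.1), which shrinks low genes, H2-DMa (0.79) and H2-DMb1 (0.98) were short of the fold, and the 4 chain genes were at 1.46 (H2-Aa) to 2.09 (Cd74).

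**Figure D3:**
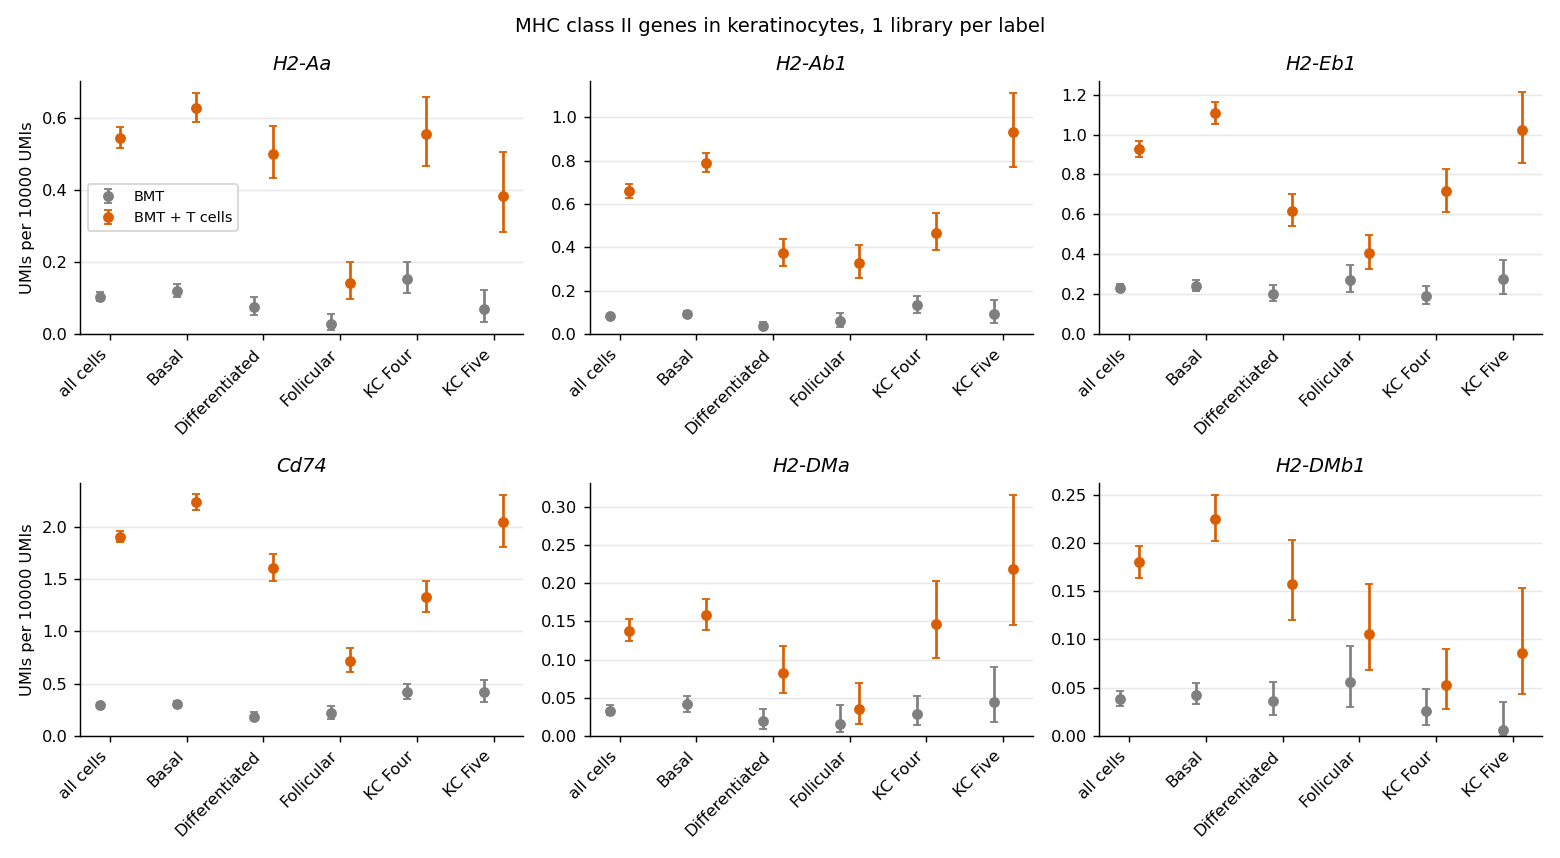
UMIs per 10000 UMIs of 6 class II genes in all keratinocytes and in each of the 5 annotated clusters, on linear axes that start at 0, with BMT in grey and BMT + T cells in orange. Error bars are 95% exact Poisson intervals and cover counting error only; over all cells each gene is higher under BMT + T cells, from 3.98-fold for H2-Eb1 to 7.93-fold for H2-Ab1.

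The difference was present in each of the 5 annotated keratinocyte clusters. In Basal cells 6 of 6 genes were past 2-fold higher (1.85% of all genes), in Differentiated cells 6 of 6 (1.3%), in KC_Four 6 of 6 (1.42%) and in KC_Five 5 of 5 (1.82%). Follicular cells had 3 of 5 (1.73% of all genes), with H2-Eb1 at a ratio of 1.49 (1.08 to 2.07) and H2-DMb1 at 1.92 (0.953 to 4.01). The filter of 20 UMIs summed both labels, so genes with fewer under BMT passed it only with the UMIs of BMT + T cells. Examples are H2-Aa (11 and 49 UMIs) and H2-DMa (7 and 28) in KC_Five and H2-Aa (7 and 32) in Follicular cells. The cluster counts are therefore no independent support. Cd74 and H2-Eb1 had over 20 UMIs under BMT alone in every cluster. The Cd74 ratio was 8.69 (7.01 to 10.9) in Differentiated, 7.31 (6.63 to 8.08) in Basal, 4.86 (3.71 to 6.46) in KC_Five, 3.32 (2.43 to 4.59) in Follicular and 3.16 (2.60 to 3.86) in KC_Four cells. For Cd74 the counting intervals of Differentiated and Basal cells lay above those of the other 3 clusters. These intervals take UMIs as independent, yet a few cells held many of them, so they do not rank the clusters. Under BMT + T cells the richest 1% of cells held 56.2% of the UMIs of H2-Aa, H2-Ab1, H2-Eb1 and Cd74 in Follicular cells. That share was 46.5% in KC_Five, 34.2% in Basal, 25.3% in Differentiated and 19.3% in KC_Four cells. Other genes had other orders, with H2-Ab1 at 9.87 in KC_Five and 8.64 in Basal cells and H2-DMa at 5.19 in KC_Four and 3.86 in Basal cells. In KC_Four the H2-DMb1 ratio of 2.08 has an interval of 0.823 to 5.52.

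Most keratinocytes had no UMI of the 4 chain genes (H2-Aa, H2-Ab1, H2-Eb1 and Cd74) under either label. A UMI of H2-Ab1 was found in 3.14% of cells under BMT and 18.4% under BMT + T cells, of Cd74 in 5.89 and 18.1%, and of H2-Eb1 in 8.89 and 23.1%. After thinning every cell to 2500 UMIs these shares were 1.27 and 9.34% for H2-Ab1, 3.07 and 11.97% for Cd74, and 4.16 and 12.3% for H2-Eb1, with no cell left out. No cell type known to lack class II was annotated in these libraries to set a background from free RNA. The 4 chain genes tended to be found in the same cells: under BMT + T cells, H2-Ab1 was detected in 73.1% of cells with an H2-Aa UMI and 9.67% of those without, and under BMT in 56.6 and 1.21%. All 4 were present in 45 cells (1.59%) under BMT and 209 (8.07%) under BMT + T cells. The richest 1% of cells held 55.7% of the 4 genes' UMIs under BMT and 32.9% under BMT + T cells, and 86.6 and 66.0% of cells had none.

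**Figure D4:**
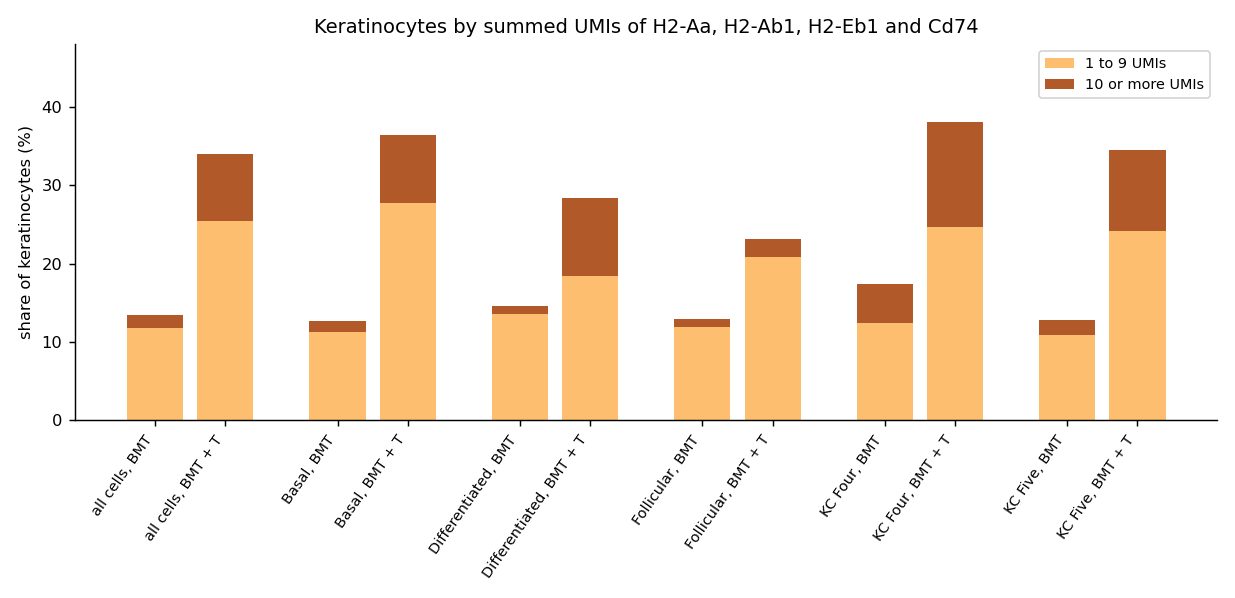
Share of keratinocytes, in percent, with 1 to 9 (light) and with 10 or more (dark) UMIs of H2-Aa, H2-Ab1, H2-Eb1 and Cd74 together, in all cells and in each cluster under each label, with cells at 0 not drawn. Over all cells, those with 10 or more of these UMIs are 1.66% under BMT and 8.61% under BMT + T cells, and cells with none are 86.6 and 66.0%, so the stacked bars stand higher under BMT + T cells.

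Markers of immune cells moved between the keratinocyte libraries as well. The 10 myeloid markers summed to 44 UMIs under BMT, with 9 detected and Ptprc at 0, and to 172 under BMT + T cells, with all 10 detected. Tyrobp had 2 and 35 UMIs among them. The 8 T cell markers summed to 68 and 82 UMIs, with Cd8a at 0 under both labels and Cd4 at 0 under BMT. The 4 B cell markers summed to 6 and 8 UMIs, with Ms4a1 and Cd79b at 0. Without the 112 and 93 cells that held any of these markers, the ratios were 7.43 for H2-Ab1, 6.17 for Cd74, 4.98 for H2-Aa, 4.67 for H2-DMb1, 4.05 for H2-DMa and 3.90 for H2-Eb1, all past 2-fold, where 1.6% of all genes were higher. Of the cells with 10 or more chain UMIs, 2 of 47 under BMT and 11 of 223 under BMT + T cells held an immune marker. The cells with 10 or more had 473 and 468 UMIs per 10000 of the keratins Krt5 and Krt14, against 442 and 452 in all cells. Within the cells that held a marker, the label ratios ran from 5.78 for H2-Eb1 to 24.9 for H2-Ab1. The ratio of H2-Eb1 to H2-Aa UMIs was 2.24 and 1.70 in keratinocytes and 0.776 to 0.924 in the donor libraries. For H2-Ab1 to H2-Aa it was 0.803 and 1.21 in keratinocytes, the latter inside the donor range of 1.15 to 1.29. The part of immune cells in these levels was not tested.

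Host CD11b+MHCII+ cells were deposited as numbered clusters, 1 to 7, of 276, 170, 161, 90, 43, 23 and 18 cells. Cd207, the langerin gene of Langerhans cells, averaged 1.56, 14, 2.83 and 6.84 CP10K in clusters 1 to 4. Clusters 5 and 6 carried keratinocyte and T cell genes (Krt14 at 205 CP10K in cluster 5 and Cd3g at 75.4 in cluster 6), and Cd74 was at 8.78 and 0.968 CP10K there. Clusters 1 to 4 split sharply in their chains: Cd74 was at 15.5, 175, 32.8 and 66.8 CP10K. H2-Ab1 was at 7.75, 69.4, 16.2 and 28.5 CP10K and H2-DMa at 1.07, 10.6, 2.41 and 1.06. Cluster 2 was highest for both. Clusters 1 to 4 lay below the donor resident mLC range for Cd74 (257 to 465 CP10K), H2-Ab1 (179 to 191) and H2-DMa (17.4 to 20.8). In each of them H2-Aa, H2-Ab1, H2-Eb1 and Cd74 were over 2-fold below the donor mean, as were 24.7, 18.6, 23.4 and 26.3% of all genes, although H2-Eb1 in cluster 2 was so only just, at a ratio of 0.499. In the cells of cluster 2 with at least 500 genes and at most 20% mitochondrial UMIs, H2-Aa (71.8 CP10K), H2-Eb1 (80.9) and Cd74 (211) were less than 2-fold below the donor means of 132, 127 and 369, and only H2-Ab1 (86.2 against 185) was further below.

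Ciita went the other way. It was at 8.17, 3.34, 8.80 and 5.90 CP10K in host clusters 1 to 4 (1081, 437, 796 and 372 UMIs), against 0.106 to 0.259 in resident mLC of the 4 donor libraries. The ratios to the donor mean were 45.22, 18.5, 48.7 and 32.6. A Ciita UMI was found in 79.3, 38.2, 87.6 and 50% of cells in clusters 1 to 4. Over 2-fold higher than donor resident mLC were 25.7, 12.7, 25.4 and 20.8% of all genes in these clusters, and Ciita ranked 26, 74, 18 and 46 of 8407, 7721, 8367 and 8036 genes. Within the host, cluster 2 was the highest of the 4 for Cd74 and the lowest for Ciita, and clusters 1 and 3 were the lowest for Cd74 and the highest for Ciita. H2-Ob was at 0.299, 0.164, 0.288 and 0.280 CP10K, against 0.0845 to 0.177 in donor resident mLC. H2-DMb2 made up 29.9, 26.8, 27.2 and 61.3% of the paralogs' UMIs in clusters 1 to 4.

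**Figure D5:**
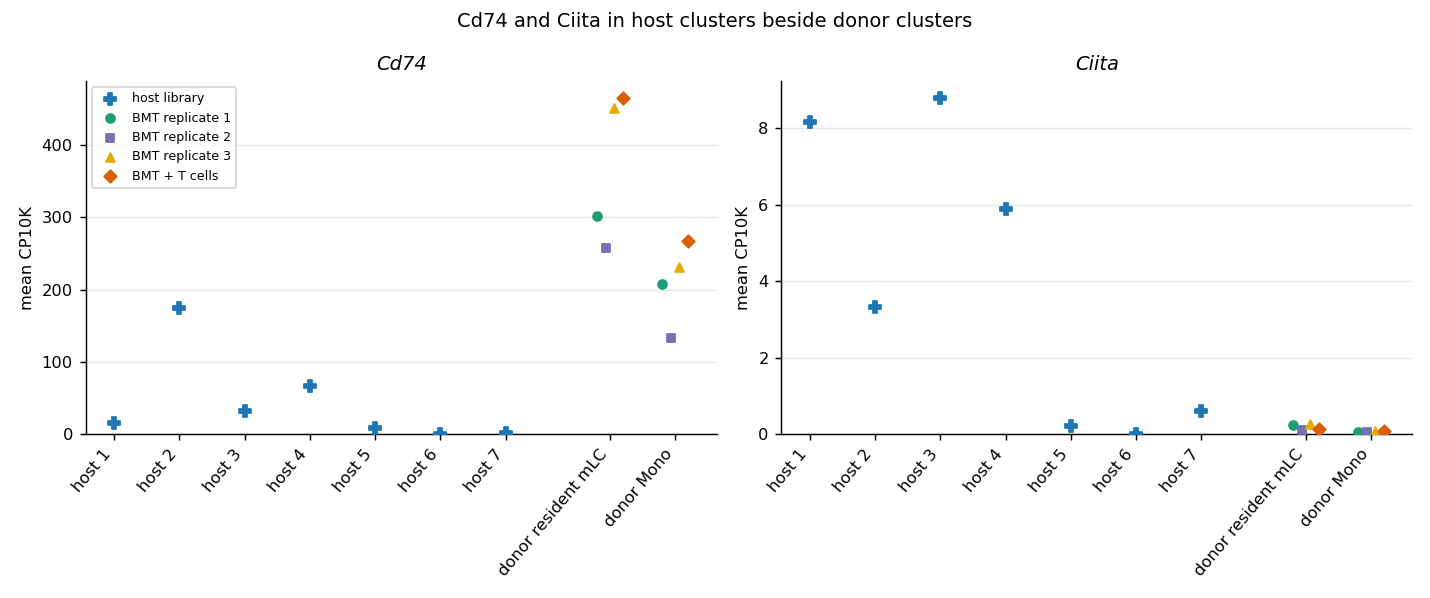
Mean CP10K, on linear axes from 0, of Cd74 (left) and Ciita (right) in host clusters 1 to 7 beside donor resident mLC and donor Mono. There is 1 host library, and donor points are the 4 libraries; in clusters 1 to 4 host Ciita lies at 3.34 to 8.80 against 0.106 to 0.259 in donor resident mLC, while host Cd74 lies at 15.5 to 175 against 257 to 465.

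Depth and mitochondrial share differed between the host clusters. Median mitochondrial UMIs were 15.6, 6.09, 16.9 and 12.9% in clusters 1 to 4, and the host table lists 23737 genes where the donor table lists 15155. In cells of clusters 1 to 4 with under 5% mitochondrial UMIs (123 cells, 79 of them in cluster 2, median 467 UMIs) Ciita was at 1.45 CP10K and Cd74 at 162. In cells with 10 to 20% (303 cells, median 4808 UMIs) Ciita was at 9.03 and Cd74 at 41.5, and with over 20% (194 cells) at 6.20 and 37.7. These bands hold different shares of the clusters. Within cluster 1 Cd74 was at 13.1, 17.5, 15.9 and 14.5 CP10K in cells with under 5, 5 to 10, 10 to 20 and over 20% mitochondrial UMIs, and Ciita at 4.16, 8.63, 9.81 and 6.22. Within cluster 2 Cd74 was at 199, 207, 188 and 96.2 CP10K and Ciita at 0.780, 4.66, 6.72 and 4.97. In both clusters Ciita was thus lowest in the band under 5%, while Cd74 was lowest over 20% in cluster 2 and under 5% in cluster 1. Restricted to cells with at least 500 genes and at most 20% mitochondrial UMIs, Ciita was at 10.1, 5.03, 9.71 and 7.93 CP10K and Cd74 at 15.9, 211, 28.9 and 55.7 in clusters 1 to 4, so Ciita lay above and Cd74 below the donor resident mLC range in each. Their part in the levels was not tested beyond this. Both restrictions were chosen after seeing the data. The host cells are 1 library, sorted and tabulated apart from the donor cells, so library and cell origin cannot be told apart.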

How the data were processed

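Libraries were made with a 10x 5' kit from sorted epidermal cells. The submitters' processing notes name GRCm38, kallisto, bustools and Seurat, with versions not given in the sources used here. The study's methods name the removal of cells with under 500 genes or over 20% mitochondrial UMIs and of predicted doublets, yet the donor tables hold 9 to 29 cells per library under 500 genes as counted here and 6 to 148 over 20%. All deposited cells were used, and no doublet step was added. The deposited expression values are natural log values, ln(1 + CP10K). The deposited percent of mitochondrial UMIs and the deposited latent time, a fraction from 0 to 1, were used as given. UMIs recovered from these values were whole within 0.001 for 100% of values, and the genes listed in the donor table covered 91.3% of the UMIs of the median cell. The 7 libraries hold 2982296 to 64343817 UMIs.

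Values were averaged per library and cluster with at least 20 cells and filtered at a mean of 0.1 CP10K. log2(CP10K + 0.1) was tested with limma 3.58.1 (R 4.3.3, trend and robust) with library as a block and Benjamini-Hochberg adjustment over all genes. A fold change on this scale understates the change of low genes. Library is the pairing unit, since clusters of 1 library come from the same cell suspension. Labels were compared without a block. Keratinocyte and host libraries had no test. The tests were also run on simulated data with independent noise and no library effect, so that run does not measure the spread between these libraries. Python 3.11.15, numpy 2.4.6, scipy 1.17.1 and pandas 2.3.3 were used elsewhere.

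The genes named were the 10 members, the listed pathway genes and markers, and the 10 other genes most correlated with the 4 chain genes. Keratinocyte values of the pathway list are not reported here. Members and lists were chosen with earlier results of these data known. Alternatives were other pseudocounts, filters, cell minimums, averages and folds, limma-voom (counts), leaving out libraries, and thinning.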

Additional observations from a re-analysis of the deposited data

How the results depend on the processing

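In resident mLC against Mono, 1 gene instead of 2 was called with a pseudocount of 1, with the mean of log values, or above a log2 fold change of 2. MC against Mono gave 0 instead of 1 with the mean of log values and 2 with limma-voom. Above a log2 fold change of 2, resident mLC against Mrc1+ macrophages gave 1 instead of 3 and migrating against resident mLC 0 instead of 2. Without a replicate block, the numbers of genes of the family called were 2, 1, 3, 0 and 2 in the 5 contrasts, as with it. In the label comparison the replicate block over cluster values left 0 called (consensus correlation 0.127; Cd74 limma adjusted p = 0.72, and 0.231 to 1.0 over all alternatives). Uncalled values changed sign in migrating against resident mLC for H2-Aa (-0.027 with the mean of log values, and -0.11 without BMT replicate 1 to 0.15 without BMT replicate 2) and H2-Eb1 (0.015 with 2 clusters in the fit, and -0.22 without BMT replicate 1 to 0.025 without BMT replicate 2). Between labels they did so for Ciita (0.021), H2-DMb2 (0.83) and H2-Oa (0.34) with all cells pooled, for H2-DMb2 with the mean of log values (0.019) and for H2-DMa (-0.091 without BMT replicate 3 to 0.18 without BMT replicate 2). The cause was not tested. Genes called over all alternatives numbered 154 to 1532 for resident mLC against Mono (1074 in the reported fit), 32 to 601 for MC against Mono (306), 135 to 1379 for resident mLC against Mrc1+ macrophages (1007), 58 to 532 for cycling (436) and 113 to 1462 for migrating against resident mLC (873). Leaving out a library moved 3 of these counts by over 1.5 times: MC against Mono to 126 without BMT replicate 2, cycling to 278 without BMT replicate 1, and migrating to 375 without BMT replicate 1 and 339 without BMT replicate 2. Between labels, 203 genes were called without BMT replicate 3 and 1 without BMT replicate 1, none of them in the family. On log2(mean CP10K + 0.1), 4 of 6 genes stayed past 2-fold in keratinocytes, with H2-DMa at 0.79 and H2-DMb1 at 0.98.

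Depth limits the low genes: Ciita, H2-Oa and H2-Ob rest on 0 to 2 UMIs in keratinocytes and under 500 UMIs in any donor cluster, and 1 library per label there leaves differences between libraries and labels inseparable.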
